A study of Arabidopsis thaliana with 6 samples.

Results

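Arabidopsis seedlings given auxin were profiled for stress-linked transcription factor genes, and 9 such genes could be followed. They are NAC014 (AT1G33060), ZAT10 (AT1G27730, also named STZ) and 7 WRKY genes: WRKY6 (AT1G62300), WRKY47 (AT4G01720), WRKY42 (AT4G04450), WRKY53 (AT4G23810), WRKY1 (AT2G04880, also named ZAP1), WRKY20 (AT4G26640) and WRKY22 (AT4G01250). Members were chosen by name: a symbol or RefSeq synonym that starts with WRKY, ANAC, NAC, ERF, ZAT, HSFA, HSFB, HSFC, DREB or MYB and goes on with a digit, apart from 9 names left out. Of 366 RefSeq genes with such a name, 9 (2.46%) had a probe set paired with them alone, out of 13286 genes so paired in all. They came from 71 WRKY, 104 NAC and 6 ZAT names. None of the 41 ERF or DREB, 20 HSF and 124 MYB names had one, so the values below describe 9 genes and not their families. Pairs came from the annotation used here, which left 8730 of 22746 probe sets without a gene. A name without a pair may therefore still have been on the arrays. Genes called measured below are those paired alone with a probe set. Each of the 9 had 1 probe set, and no filter on level removed any.

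The 6 Affymetrix ATH1 arrays hold RNA of whole Arabidopsis thaliana seedlings aged 9 days, 2 cultures to a group. The mp group carried the mp-B4149 allele of MONOPTEROS (MP), an auxin response factor, and received 10 µM of the glucocorticoid dexamethasone (DEX) for 1 h. The DEX-treated GR-bdl group carried pRPS5A-Myc-GR-bdl, a transgene for the glucocorticoid receptor joined to stabilised BODENLOS (BDL), the Aux/IAA protein that represses MP, and received the same DEX. The control group was the same GR-bdl line without DEX. IAA, an auxin, followed at 50 µM for 1 h in all 3 groups, so no array shows seedlings without auxin. The RPS5A promoter is known for activity in dividing cells, and mp seedlings for failing to form an embryonic root. Only mp seedlings had DEX and no fusion protein, and mp differs from the controls in both line and DEX, so these cannot be told apart.

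These factors switch other genes on or off when plants meet cold, salt, wounding, pathogens or nutrient shortage. WRKY proteins bind W-box elements in promoters, and many act downstream of MAP kinase cascades in defence and in leaf senescence. NAC proteins form dimers through a shared amino-terminal domain, and members act in development as well as in stress. ZAT10 is a zinc finger protein with a repressor motif, and its transcript responds quickly to salt, cold and strong light.

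Levels are given as log2 of the gcRMA intensity, and ± is the SD of 2 arrays unless SE is written. Array medians lay between 26.1 and 27.1 in intensity units. Between 43.1% and 44.1% of the probe sets of an array lay below 4 on the log2 scale, and a group mean below 4 is called the low end of the range. The 9 genes had a median SD within a group of 0.14 in mp, 0.12 in DEX-treated GR-bdl and 0.11 in the controls. Leaf genes of the Calvin cycle and light harvesting lay between 12.1 and 14.0 on every array of the 3 groups. Of 4 measured root markers, 3 were lower in mp, and they are given beside the WRKY genes that fell there. In bulk RNA, fewer cells of a type and less RNA per cell cannot be told apart. The labels name no batch.

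The first comparison asked which of these genes changed when GR-bdl seedlings were given DEX, which releases the fusion protein, before auxin. No line without the fusion was profiled both with and without DEX. Release of GR-bdl and an effect of DEX itself therefore cannot be told apart here. NAC014 and ZAT10 fell, and no WRKY gene was called. A call means a limma adjusted p under 0.05, adjusted over all 22746 probe sets. Thus 2 of 9 genes were called lower and none higher, where 1.64% of all probe sets were called lower, 0.637% higher and 2.27% in either direction. Of the 7 WRKY genes, none had an unadjusted limma p under 0.05 either, and their differences ran from −0.25 to 0.20. The median difference of the 9 genes was −0.22, against 0.04 for all probe sets. ZAT10 was put among the members with its decrease already known. For that reason nothing is read from this count or median about these genes as a set.

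The second comparison set mp against the controls. WRKY47, WRKY6 and WRKY53 fell in mp, NAC014 and WRKY20 rose, and WRKY1, WRKY22, WRKY42 and ZAT10 were not called. These are 5 of 9 genes, where 41.5% of all probe sets were called in that comparison, 23.9% higher and 17.5% lower. With 9 genes this count is near the share of all probe sets, and nothing is read from it about these genes as a set. Their median difference was 0.27, against 0.12 for all probe sets, and they ranged from −2.35 to 1.26.

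In the third comparison, mp was set against DEX-treated GR-bdl. NAC014, ZAT10, WRKY1 and WRKY20 were higher in mp, WRKY47, WRKY6 and WRKY53 were lower, and WRKY22 and WRKY42 were not called. So 7 of 9 genes were called, where the share was 40.1% of all probe sets, 22.1% higher and 18% lower. The median difference of the 9 genes was 0.22, against 0.07 for all probe sets, and they ranged from −2.55 to 2.77. ZAT10 is among the 7, and its decrease on these DEX-treated GR-bdl arrays was known when it was chosen. Nothing is therefore read from this count or median about these genes as a set. The 3 comparisons share arrays: the DEX-treated GR-bdl arrays enter the first and the third, the mp arrays the second and the third, and the controls the first and the second.

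**Figure D1:**
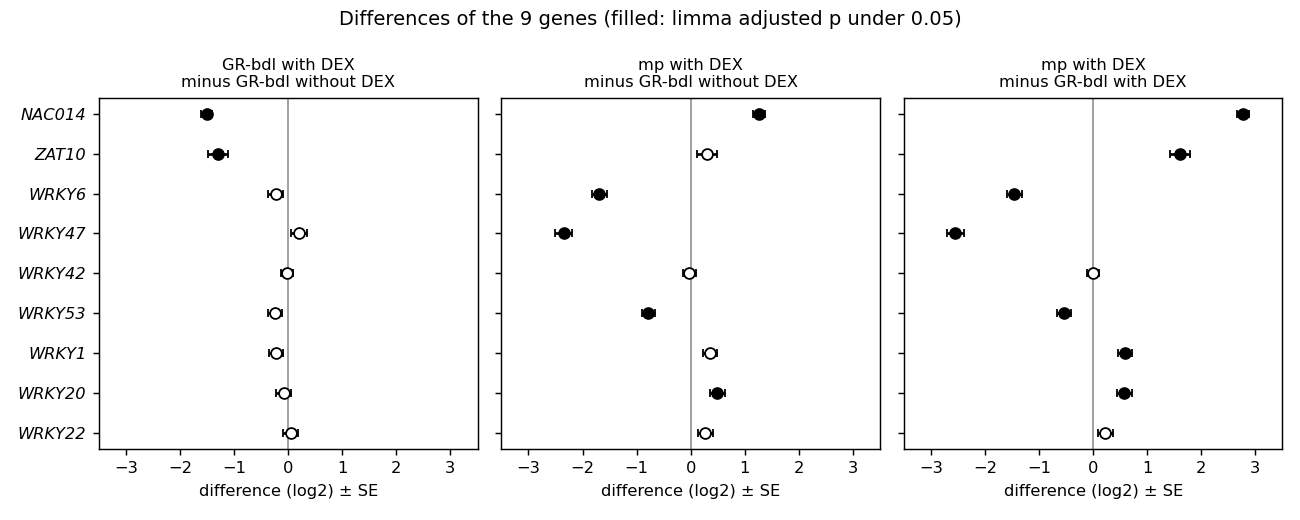
Difference in log2 gcRMA intensity (x axis) of each of the 9 genes (y axis) in the 3 comparisons, with bars for the limma SE and filled points for a limma adjusted p under 0.05. NAC014 lies at −1.51, 1.26 and 2.77, while WRKY47 lies at 0.20, −2.35 and −2.55.

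NAC014, a gene of the NAC family, stood at a different level in each group. It measured 6.94 and 7.00 on the mp arrays, 4.18 and 4.23 on the DEX-treated GR-bdl arrays and 5.70 and 5.72 on the control arrays. The groups did not overlap, and mp was highest and DEX-treated GR-bdl lowest. The gap between the nearest arrays was 1.47 between DEX-treated GR-bdl and the controls and 1.22 between mp and the controls, against a highest SD within a group of 0.04.

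With DEX, NAC014 fell by 1.51 ± 0.10 (SE) on the log2 scale, which is 2.84-fold, with a limma adjusted p of 0.000166. Only 117 of the 22746 probe sets had a lower difference. In mp it rose by 1.26 ± 0.10 over the controls (2.40-fold, limma adjusted p = 2.85e-05), and 5.12% of all probe sets had a higher difference. Between mp and DEX-treated GR-bdl it was 2.77 ± 0.10 higher in mp (6.81-fold, limma adjusted p = 2.94e-07), with 237 probe sets above it. The 3 NAC014 calls held under each of 16 alternative settings, at limma adjusted p values of at most 0.00317, 0.000513 and 4.28e-05. The DEX difference was −0.99 with 16 added to each intensity before the logarithm, a step that shrinks the differences of low signals.

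ZAT10 was lowest in DEX-treated GR-bdl. It measured 7.50 and 7.90 on the mp arrays, 5.99 and 6.21 on the DEX-treated GR-bdl arrays and 7.20 and 7.60 on the control arrays. Both DEX-treated GR-bdl arrays lay below all 4 others, and the mp and control arrays overlapped.

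ZAT10 fell by 1.3 ± 0.18 (SE) with DEX, which is 2.46-fold, and 152 probe sets had a lower difference. Its limma adjusted p was 0.00924. It was 0.0626 without DEX-treated GR-bdl array 1, 0.0648 without control array 2 and 0.108 with 16 added to each intensity, so this call rests on those arrays and on that choice. ZAT10 was put among the members with this decrease already known, so it lends no independent support. In mp it was 1.60 ± 0.18 higher than in DEX-treated GR-bdl (3.04-fold, limma adjusted p = 0.000193), and that call held under all 16 alternatives. That comparison uses the same DEX-treated GR-bdl arrays on which the decrease was already known, so it lends no independent support either. Against the controls the difference was 0.30 ± 0.18, with a 95% interval of −0.12 to 0.73, and it was not called (limma adjusted p = 0.218). Centring each array on its hybridization controls turned it to −0.0058.

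**Figure D2:**
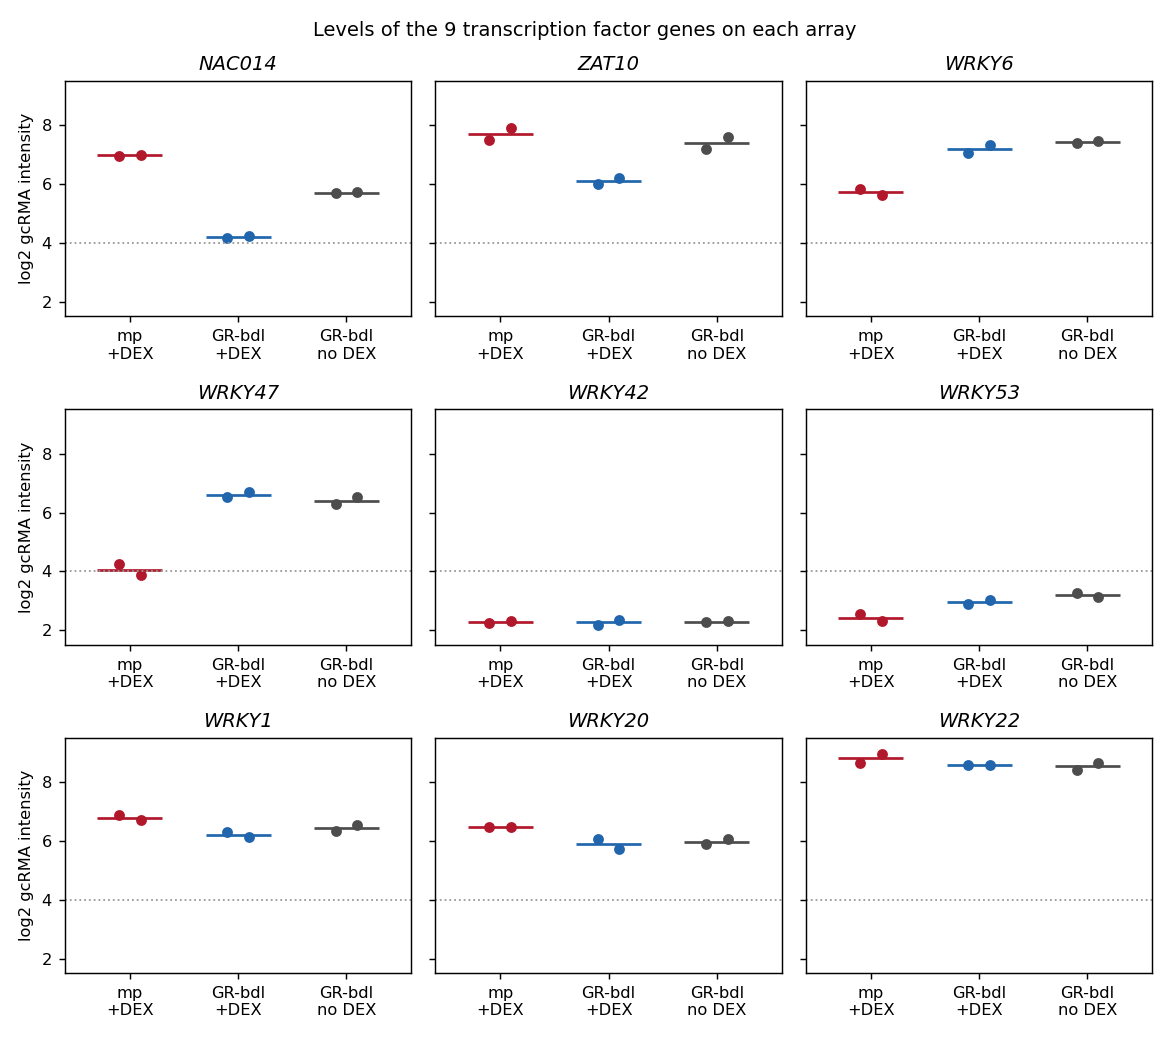
Level (log2 gcRMA intensity, y axis) of each gene on every array, in the mp, DEX-treated GR-bdl and control groups (x axis). Points are single arrays, horizontal bars are means of 2, and the dotted line at 4 marks the low end of the range. NAC014 steps down over mp (6.97), the controls (5.71) and DEX-treated GR-bdl (4.2), and WRKY42 lies near 2.3 in each group.

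Among the 7 members with a mean of at least 4, NAC014 had the pattern most like that of ZAT10, with a Pearson r of 0.93 over the 6 arrays. WRKY1, WRKY20 and WRKY22 followed at 0.79, 0.66 and 0.52, then WRKY6 at −0.52. These are descriptions over 3 pairs of arrays in 3 groups, so they mostly repeat the group means. The NAC014 and ZAT10 patterns parted in mp, where NAC014 was above the controls on both arrays and ZAT10 overlapped them.

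WRKY6, WRKY47 and WRKY42 belong to the same WRKY subgroup, IIb. WRKY6 is known for its part in leaf senescence and in phosphate transport, where it represses the phosphate exporter gene PHO1. WRKY42 acts on phosphate supply too, and WRKY47 has been linked to boron supply. In mp, WRKY6 and WRKY47 fell, while WRKY42 stayed at the low end of the range in all 3 groups.

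WRKY47 measured 4.24 and 3.87 on the mp arrays, 6.52 and 6.68 on the DEX-treated GR-bdl arrays and 6.28 and 6.52 on the control arrays. Both mp arrays lay more than 2 below every other array, and 1 of them lay below 4. WRKY47 fell by 2.35 ± 0.16 (SE) against the controls, which is 5.08-fold (limma adjusted p = 7.77e-06), and by 2.55 ± 0.16 against DEX-treated GR-bdl (4.64e-06). In the first of these 586 of 22746 probe sets had a lower difference, and in the second 496. With DEX its difference was 0.20 ± 0.16 and was not called (limma adjusted p = 0.68).

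WRKY6 measured 5.84 and 5.64 on the mp arrays, 7.05 and 7.34 on the DEX-treated GR-bdl arrays and 7.39 and 7.46 on the control arrays. The mp arrays lay apart from the rest, with a gap of 1.21 to the nearest DEX-treated GR-bdl array. WRKY6 fell by 1.69 ± 0.14 (SE) against the controls, which is 3.22-fold (limma adjusted p = 2.56e-05), and by 1.46 ± 0.14 against DEX-treated GR-bdl (6.20e-05). With DEX its difference was −0.23 ± 0.14, with a 95% interval of −0.54 to 0.085. The calls of WRKY47 and WRKY6 in mp held under all 16 alternatives.

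WRKY42 had means of 2.27 ± 0.04 in mp, 2.27 ± 0.13 in DEX-treated GR-bdl and 2.29 ± 0.04 in the controls. Its groups overlapped in each comparison, and its differences were −0.0037, −0.024 and −0.020 in the third, second and first comparisons. That level limits what a decrease can show, so the absence of a call does not say that WRKY42 held steady.

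Some but not all of the measured root markers fell in mp, as WRKY6 and WRKY47 did. Of 23 listed root markers 4 were measured, and in mp 3 fell against the controls, where 17.5% of all probe sets were called lower. The expansin genes EXPA7 and EXPA18 of root hairs fell by 3.80 ± 0.22 and 2.89 ± 0.25 (SE), and JKD of root radial patterning by 1.52 ± 0.18. All 3 ended at the low end of the range. For PYK10, which encodes a beta-glucosidase of roots, the difference was 0.10 ± 0.11. The summed intensity of EXPA7, EXPA18 and JKD was 34.4 to 34.8 in mp, 188 to 307 in DEX-treated GR-bdl and 279 to 320 in the controls. With PYK10 the sums were 9780 to 10415 in mp, 9390 to 9893 in DEX-treated GR-bdl and 9501 to 9813 in the controls. Nearly all of these larger sums is PYK10, so they repeat its level. The part of root tissue in the WRKY decreases was not tested.

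Among 5 measured leaf and shoot markers of 17 listed, SBPASE of the Calvin cycle was called higher in mp than in the controls (0.31 ± 0.11 SE, limma adjusted p = 0.0451), and PRK, RCA, LHCB4.1 and LHCB4.2 were not called. Centred on the hybridization controls, SBPASE stood at 0.00096, without a call (nor after repeated quantile normalization, at 0.26), and RCA and LHCB4.1 were called lower in mp, at −0.49 and −0.48. The leaf polarity gene YAB3 rose by 1.02 ± 0.14, while CLV3 of the shoot apex, PHV of the vasculature and FAMA and MUTE of the guard cell lineage were not called. CLV3 and MUTE lay at the low end of the range in every group, and FAMA in both GR-bdl groups. For these genes the absence of a call does not say that they held steady. Centring on array medians put FAMA at 0.58 and repeated quantile normalization at 0.62, both called higher (limma adjusted p = 0.0405 and 0.0343), and centring on the hybridization controls put PHV at −0.75, called lower (0.0202). None of the 14 markers was called with DEX (limma), and 2 had an unadjusted p under 0.05. JKD, at −0.80 with DEX, passed the threshold once centred on those controls (limma adjusted p = 0.0429).

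WRKY53, a gene of WRKY group III known as a driver of leaf senescence, lay at the low end of the range in every group. It measured 2.55 and 2.31 on the mp arrays, 2.90 and 3.03 on the DEX-treated GR-bdl arrays and 3.28 and 3.14 on the control arrays. The groups did not overlap, with mp lowest and the controls highest. WRKY53 fell by 0.78 ± 0.13 (SE) in mp against the controls (limma adjusted p = 0.00144). Against DEX-treated GR-bdl it fell by 0.53 ± 0.13 (0.0104), a call that was lost without DEX-treated GR-bdl array 2 (0.0541) or mp array 2 (0.0637). With DEX the difference was −0.25 ± 0.13 and was not called (limma adjusted p = 0.503). With 16 added to each intensity, the differences of mp from the controls and from DEX-treated GR-bdl were −0.24 and −0.15.

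WRKY1 and WRKY20 belong to WRKY group I, whose proteins carry a pair of WRKY domains. WRKY20 measured 6.47 and 6.48 on the mp arrays, 6.06 and 5.73 on the DEX-treated GR-bdl arrays and 5.90 and 6.06 on the control arrays. Both mp arrays lay above the rest, and the DEX-treated GR-bdl and control arrays overlapped. WRKY20 rose in mp by 0.49 ± 0.14 (SE) over the controls (limma adjusted p = 0.0201) and by 0.58 ± 0.14 over DEX-treated GR-bdl (0.00999). The first of these calls was lost without control array 1 (0.134), mp array 1 (0.0679) or mp array 2 (0.0721), and the second without DEX-treated GR-bdl array 2 (0.051).

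WRKY1 measured 6.88 and 6.72 on the mp arrays, 6.30 and 6.13 on the DEX-treated GR-bdl arrays and 6.34 and 6.54 on the control arrays. Its groups did not overlap in any comparison, though DEX-treated GR-bdl and the controls were only 0.034 apart at their nearest arrays. WRKY1 was 0.58 ± 0.13 (SE) higher in mp than in DEX-treated GR-bdl (limma adjusted p = 0.00732). Its difference from the controls in mp was 0.36 ± 0.13 and was not called (0.0562), but was with each array centred on its median (0.0405). After centring on the hybridization controls, neither WRKY1 nor WRKY20 was called in mp. Their differences were then 0.048 and 0.19 from the controls and 0.29 and 0.29 from DEX-treated GR-bdl.

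WRKY22, which encodes a group IIe protein known from MAP kinase signalling after flagellin, was not called in any comparison. It measured 8.66 and 8.95 on the mp arrays, 8.58 and 8.59 on the DEX-treated GR-bdl arrays and 8.42 and 8.65 on the control arrays. The mp arrays lay just above the rest, by 0.012 from the nearest control array. With DEX the difference was 0.048 ± 0.14 (SE), with a 95% interval of −0.27 to 0.36. In mp it was 0.27 ± 0.14 from the controls and 0.22 ± 0.14 from DEX-treated GR-bdl, and these became −0.039 and −0.064 after centring on the hybridization controls.

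Against all probe sets, groups without overlap were common. With 2 arrays a group, 44.1% of probe sets had no overlap between DEX-treated GR-bdl and controls, against 5 of these 9 genes. Between mp and the controls the share was 76.7%, against 7 of 9, and between mp and DEX-treated GR-bdl 68.5%, against 8 of 9. Nothing is read from these counts about the 9 genes as a set.

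**Figure D3:**
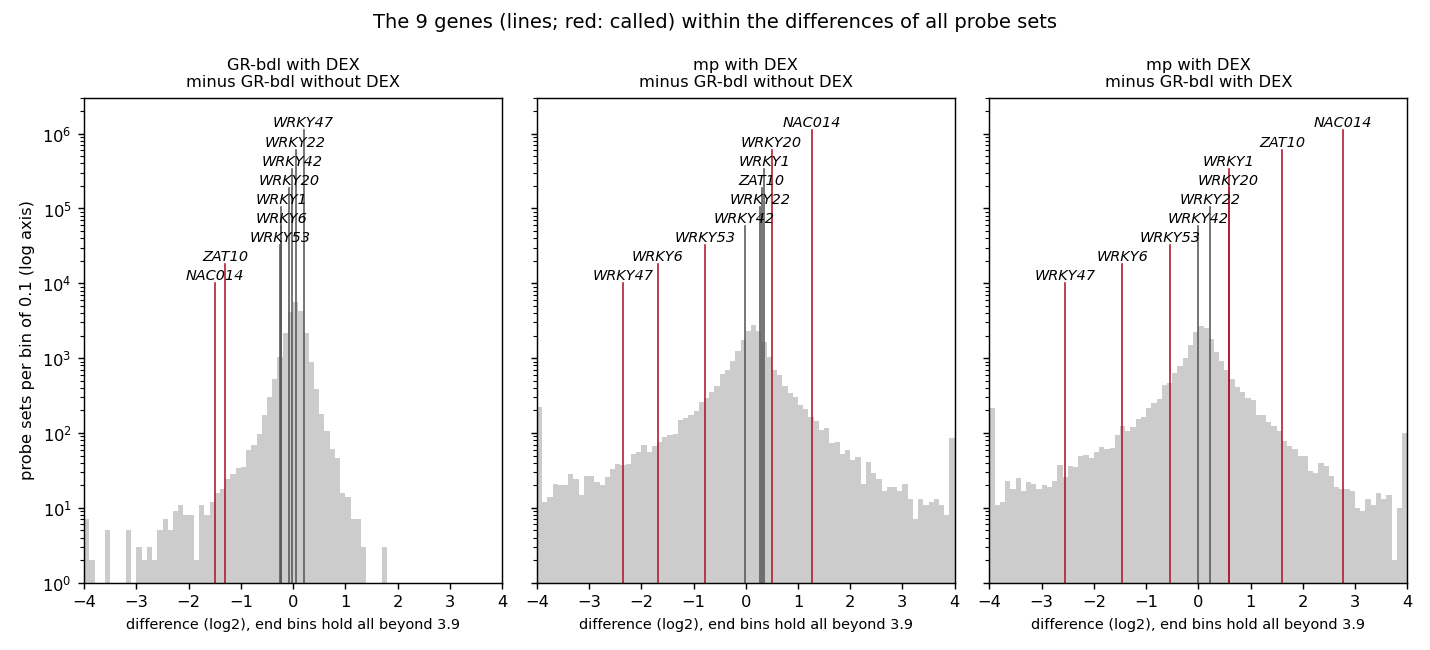
Number of probe sets per bin of the difference in log2 gcRMA intensity (x axis, bins of 0.1) on a log axis, for each comparison, with a line for each of the 9 genes (red where called; the height of a line carries no value). With DEX, NAC014 and ZAT10 lie in the lower tail, with 117 and 152 of 22746 probe sets below them, and the 7 WRKY genes lie between −0.25 and 0.20.

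Other stress genes were taken from 6 lists of heat-shock, cold, defence, jasmonate and ethylene, touch and wound, and MAP kinase genes. Of 185 listed names 17 were measured, that is, paired alone with a probe set in the annotation used. None of the 38 defence or 25 MAP kinase names was so paired, which does not say that the arrays lacked them. With DEX, none of the 17 was called (limma), 2 had an unadjusted p under 0.05, and their median difference was −0.024. In mp against the controls 8 rose, 5 fell and 4 were not called. That is 76.5% of the 17 measured genes, where 41.5% of all probe sets were called. Against DEX-treated GR-bdl 8 were higher in mp, 4 lower and 5 not called, or 70.6% called, where the share was 40.1% of all probe sets. The lists were chosen with earlier results of these data known, so nothing is read from these shares about stress genes as a set.

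In mp the measured cold genes moved in both directions, as did the touch and wound genes. Of 4 cold and dehydration genes, COR15A and COR15B, which encode chloroplast-protecting proteins, rose by 3.78 ± 0.18 and 3.88 ± 0.13 (SE) against the controls. COR15A rose from the low end of the range. The dehydrin genes COR47 and LTI30 fell by 0.73 ± 0.13 and 3.39 ± 0.12. Of 6 touch and wound genes 3 rose and 2 fell, and CML37 passed as higher with arrays centred on their medians (0.38, limma adjusted p = 0.0402). CML38 and CML39, which encode calmodulin-like proteins, rose by 2.40 ± 0.21 and 3.31 ± 0.23, the second from the low end of the range. Of 3 related ubiquitin ligase genes, PUB22 rose by 1.04 ± 0.17, and PUB23 and PUB24 fell by 2.44 ± 0.13 and 0.61 ± 0.11. PUB24 lay at the low end of the range in mp and in the controls, and PUB23 ended there in mp.

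Both measured genes of the heat-shock list rose in mp. ROF2, a co-chaperone gene, rose by 1.49 ± 0.14 (SE) and FES1A, which encodes an HSP70-binding protein, by 0.69 ± 0.19. With arrays centred on the hybridization controls FES1A was not called (0.38). No heat-shock factor gene was paired alone with a probe set, so none could be set beside them. Of 5 jasmonate and ethylene genes, EIN3, which encodes a main transcription factor of ethylene response, fell by 0.73 ± 0.12. The defensin gene PDF1.1 rose by 1.1 ± 0.22 at the low end of the range, and PDF1.2, PDF1.2B and THI2.1, all at the low end, were not called. THI2.1 was called lower with arrays centred on the hybridization controls (−0.51, limma adjusted p = 0.0114) and after repeated quantile normalization (−0.31, 0.0461).

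**Figure D4:**
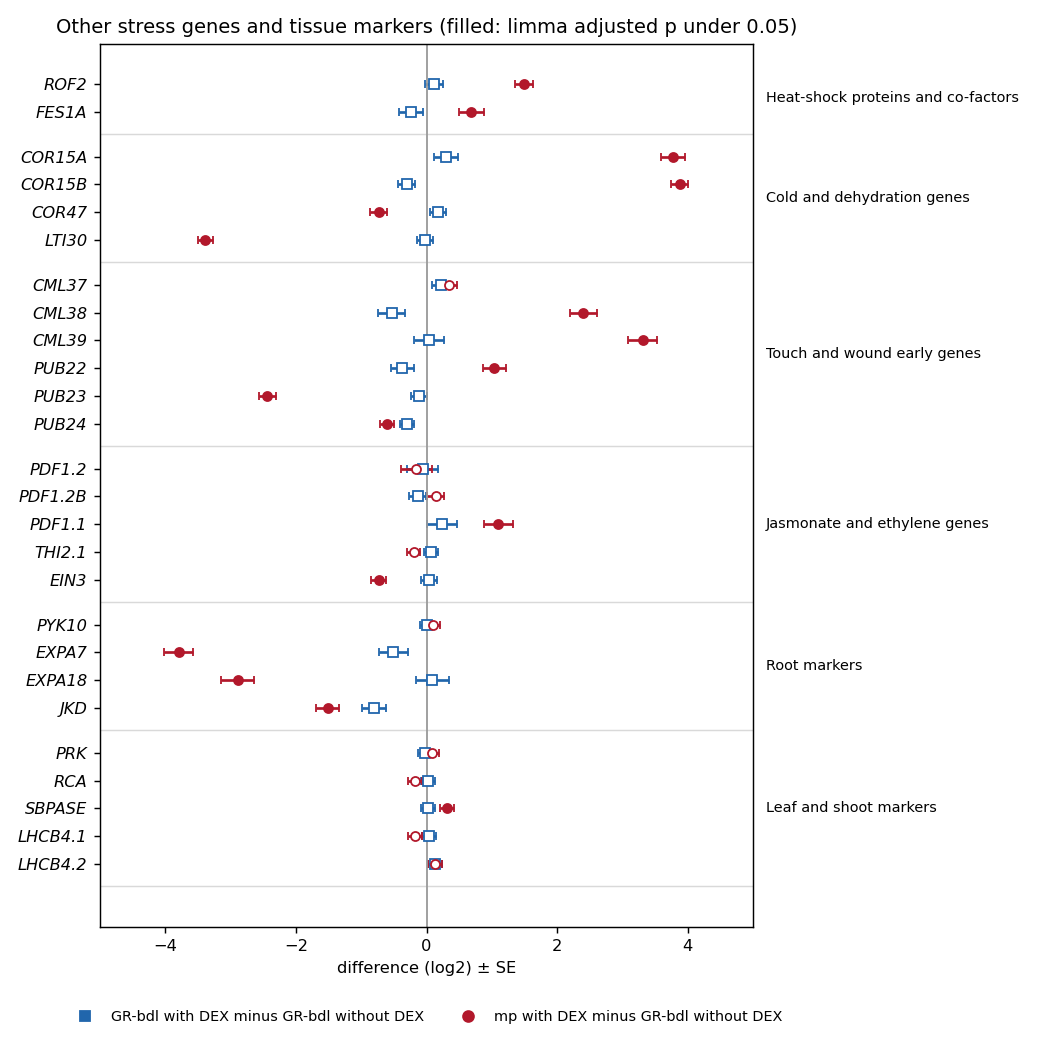
Difference in log2 gcRMA intensity (x axis, bars for the limma SE) of the 17 measured stress genes and of 9 root and leaf markers, for GR-bdl with DEX minus GR-bdl without DEX (squares) and mp with DEX minus GR-bdl without DEX (circles), filled where the limma adjusted p was under 0.05. No square is filled, while the circles of COR15B and LTI30 lie at 3.88 and −3.39.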

How the data were processed

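The deposited values are gcRMA intensity values on a linear scale, 1 column per array. The authors made them with gcRMA, per the submitters' processing notes. Its version was not given in the sources used here. This method subtracts a background estimated from probe sequence, brings the arrays to 1 distribution and gives 1 value per probe set, so low signals lie close together. Groups follow the source label and the design text, since the labels' treatment text gives DEX to all samples. The titles of the mp arrays name IAA only, while their source label names DEX and IAA, and the source label was followed. The log2 was taken with no pseudocount or filter, and 22746 probe sets remained without the 64 controls. Of these, 13513 were paired with 1 gene, 503 with several and 8730 with none. Names came from the RefSeq table of assembly TAIR10.1.

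Tests used limma 3.58.1 under R 4.3.3 (a mean per group, eBayes, all 6 arrays in 1 fit, 3 residual and 5.12 prior degrees of freedom), with Benjamini-Hochberg adjustment over all probe sets. On simulated data of the DEX comparison with 22746 probe sets, 28.8% of changes of 0.5, and 100% of changes of 1 and of 2 on the log2 scale, were recovered, with 12 false calls. The simulated noise was independent and normal, with the spread that eBayes gave in this fit. These shares hold for such noise and need not hold for the real arrays. Replicates were separate cultures, and their number limits the precision. Deviations of arrays with the same replicate number correlated at −0.030, 0.098 and −0.040, so the numbers were not taken as pairs. All 9 members are named, as is every gene called on a list. FAMA, written into the root list as well, was counted with the guard cell genes. The members and lists were chosen with earlier results of these data known. Scripts ran in Python 3.11.15 with pandas 2.3.3 and matplotlib 3.10.9.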

Additional observations from a re-analysis of the deposited data

How the results depend on the processing

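Tried were quantile normalization run again, centring on array medians or on the 18 hybridization control probe sets, a mean of at least 4, a difference of at least 1, a replicate block, 2 other eBayes settings, 4 arrays alone, 16 added to each intensity, and each array left out. A lower-mean probe set and a removal of genes from other families did not apply, since each gene had 1 probe set and none was of another family. Leaving out an array of the group outside a comparison gave the same fit as the 4 arrays of that comparison alone. The 16 alternatives of a comparison are therefore not all distinct. Of the differences, 395 kept direction and call, 17 lost a call, 1 gained one and 13 changed sign, none of them called. With DEX, genes called lower numbered 1 with 16 added, and 1 to 2 with each array left out, and none was called higher in any. In mp against the controls, genes called higher numbered 1 with the minimum of 1 or centred on the hybridization controls, and 1 to 2 with each array left out. Genes called lower there numbered 2 with the minimum of 1 and 3 with that centring or with each array left out. In mp against DEX-treated GR-bdl, genes called higher numbered 2 with the minimum or that centring, and 3 to 4 with each array left out, and genes called lower 2 to 3. Under that centring the median difference over all probe sets was −0.19, not 0.12, in mp against the controls, and −0.22, not 0.07, against DEX-treated GR-bdl. It gave 2644 higher and 6984 lower probe sets in the first case, against 5441 and 3989, and 2779 and 7139 in the second, against 5031 and 4083. WRKY22 then stood at −0.039 and −0.064 and ZAT10 in mp against the controls at −0.0058. WRKY42, at the low end of the range, stood at 0.016 and 0.027 after median centring. Over the arrays left out, WRKY20 with DEX ran from −0.25 to 0.081, WRKY22 from −0.066 to 0.16 and WRKY42 from −0.11 to 0.069. WRKY42 ran from −0.054 to 0.0059 in mp against the controls and from −0.093 to 0.086 against DEX-treated GR-bdl. The cause of these changes was not tested. The replicate block changed no call of these genes: it gave 2 lower with DEX, 2 higher and 3 lower in mp against the controls, and 4 higher and 3 lower against DEX-treated GR-bdl. With 16 added, 41 higher and 190 lower probe sets were called with DEX, against 145 and 372; leaving out control array 1 gave 50 and 225, control array 2 gave 24 and 216, and DEX-treated GR-bdl array 2 gave 89 higher.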

Other observations

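The protein-coding genes next to each member on the chromosome were looked at after the members' values had been seen. Of 18 neighbours in the order of protein-coding genes of the RefSeq table, 12 had a probe set paired with them alone. With DEX, none of the 12 was called (limma) and 2 had an unadjusted p under 0.05. In mp against the controls 5 rose, 4 fell and 3 were not called, where 41.5% of all probe sets were called. AT1G33055, next to NAC014, differed by 0.13 with DEX, where NAC014 fell by 1.51, and AT1G33070 on its other side differed by 0.12. AT1G62290, next to WRKY6, rose by 1.52 ± 0.11 (SE) in mp against the controls, while WRKY6 fell. Beside WRKY47, CRK fell by 0.75 ± 0.18 and AT4G01730 rose by 0.35 ± 0.11 in that comparison. Centring on the hybridization controls left AT4G01730 at 0.041, AT4G23820 at 0.20, SCL21 at 0.17 and AT1G33055 at 0.29, all without a call, where each had been called higher. AT4G04460, next to WRKY42, fell by 1.31 ± 0.15.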
